A study of Glycine max with 16 samples.

Results

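The response of soybean leaves to drying in air was followed in B010C, 1 of 3 transgenic lines in which the transcription factor gene GmWRKY54 is over-expressed. The members are the 4 samples that the labels assign to B010C, of 16 samples in the series: 2 from seedlings dehydrated in air for 6 h and 2 from well-watered seedlings. The other 12 samples come from the lines A004A and A005B, also over-expressing GmWRKY54, and from the null line, whose labels carry the line name B001A, each again with a dehydrated and a watered group of 2 samples. All were trifoliate leaves of 2-week-old Glycine max plants raised on soil in a greenhouse. The labels do not give the promoter of the transgene, its copy number, or whether the pair of samples in a group represents different plants. They also do not say when the watered plants were harvested relative to the 6 h of drying, so a difference in harvest time cannot be told apart from drying.

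A leaf that loses water accumulates abscisic acid, the hormone that closes stomata, and switches on genes for protective proteins and for sugars and amino acids that hold water. Genes of photosynthesis and growth are commonly turned down at the same time. WRKY proteins are a large plant family of DNA-binding transcription factors, many of which act in responses to stress.

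The deposited table gives 56044 genes as RPKM (read counts scaled by gene length and by the mapped reads of the library), with 8 columns, 1 per line and treatment, so B010C has 1 dehydrated and 1 watered value per gene and no replicate value within a group. The sum of RPKM was 818267 in dehydrated B010C and 718038 in watered B010C, and between 636011 and 785735 in the other 6 columns. The number of reads behind each column is unknown. The deposited table has identifiers but no gene names, and 0 of the identifiers matched the gene table at hand. Genes are therefore given by identifier and without a function. For the same reason the level of GmWRKY54 and the markers of leaf tissue could not be read. RPKM is a share of the sequenced RNA, and in whole leaves fewer cells of a type and less RNA per cell cannot be told apart.

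Genes with at least 1 RPKM in either B010C column were counted, which left 33377 genes. Of the 22667 genes below that level, 9993 were listed at 0 in both columns. The boundary cut through a dense range, with 48 genes whose higher value lay within 0.01 RPKM inside it and 50 within 0.01 RPKM outside it. A response is the difference between the dehydrated and the watered column in log2(RPKM + 1), a scale on which the change of low genes is understated. A difference of 1 on that scale is called 2-fold below. It carries no p-value, because each group has 1 column.

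A large part of the leaf transcriptome differed in level between dehydrated and watered B010C. At least 2-fold higher in dehydrated leaves were 6177 genes, or 18.5% of those counted, and at least 2-fold lower were 8088 genes, or 24.2%. The remaining 57.3% lay within 2-fold. The genes at least 2-fold higher had a median of 18.5 RPKM in dehydrated leaves, against 2.63 RPKM in watered leaves. The genes at least 2-fold lower had a median of 1.85 RPKM in dehydrated leaves, against 9.78 RPKM in watered leaves. The median difference of all genes counted was -0.17. With the columns put on a common scale by the median of gene ratios it was 0.05, and 7447 genes were then higher and 6765 lower. With equal column sums it was -0.36, with 5775 genes higher and 10047 lower. Which direction held more genes at 2-fold thus followed the scaling.

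**Figure D1:**
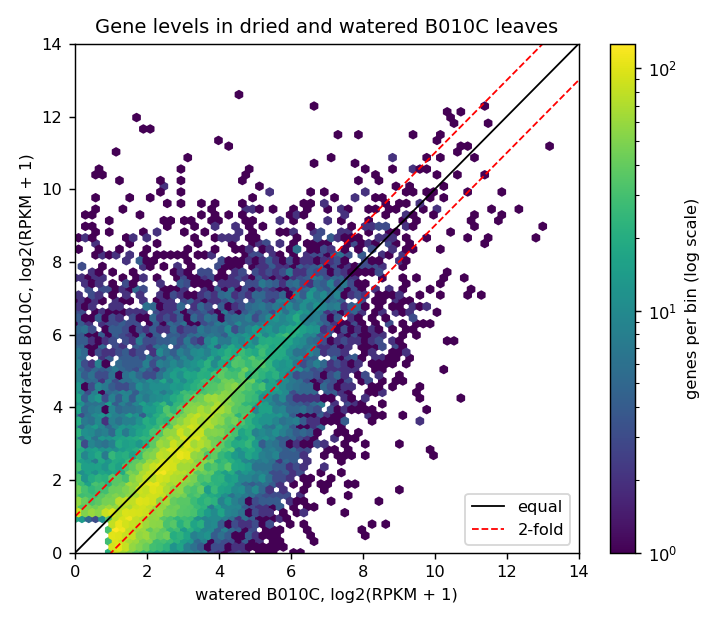
Level of each of the 33377 genes in dehydrated B010C (vertical axis) and watered B010C (horizontal axis), both in log2(RPKM + 1), with the number of genes per bin in colour. The solid line marks equal levels and the dashed lines 2-fold differences. The upper left holds genes at a few RPKM or less in watered leaves that reach levels above 100 RPKM in dehydrated leaves, and no comparable cloud reaches as far into the lower right. The empty corner at the origin is the filter at 1 RPKM.

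Large rises were more frequent than large falls. At 4-fold the numbers were close, with 2811 genes higher and 2708 lower. At 8-fold 1442 were higher and 767 lower, at 16-fold 711 and 189, and at 32-fold 339 and 53. Rises of at least 256-fold were seen in 25 genes and falls of that size in 0. At 16-fold the excess of rises was also present with equal column sums (733 higher, 291 lower), with median-of-ratios scaling (839 and 152), with quantile normalization (651 and 184) and with a pseudocount of 0.1 (1528 and 828), although it was smaller with the last. On the main scale a gene with few RPKM in watered leaves cannot fall far, which limits the number of large falls.

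**Figure D2:**
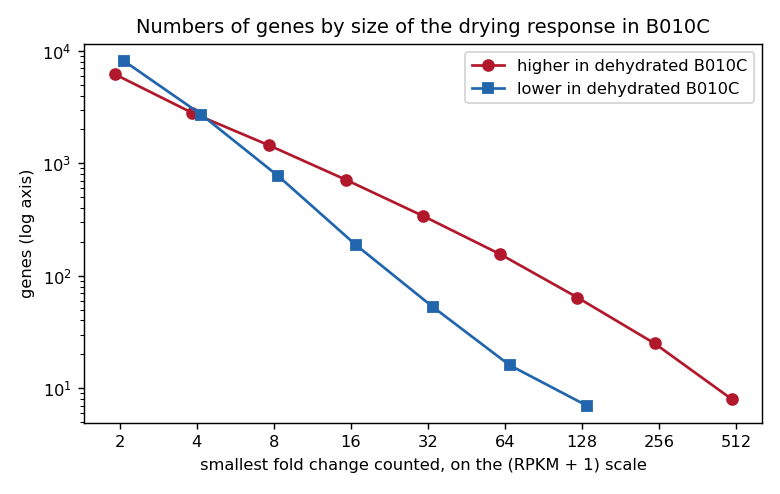
Number of genes (vertical log axis) at or beyond each fold change on the (RPKM + 1) scale (horizontal axis), for genes higher (circles) and lower (squares) in dehydrated than in watered B010C. Lower genes outnumber higher genes at 2-fold, the numbers are close at 4-fold, and at 128-fold 64 genes were higher and 7 lower.

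Individual genes show the size of the change. Glyma.01G021000 stood at 4241 RPKM in dehydrated B010C and at 2.24 RPKM in watered B010C, the largest rise among genes reaching 20 RPKM, with a difference of 10.35. A004A had 3653 RPKM dehydrated and 6.50 RPKM watered, A005B 3817 and 4.25 RPKM, and null 3920 and 7.22 RPKM. All dehydrated values were far above all watered values, and watered B010C was the lowest. In A004A, A005B and null the difference was 9.11 ± 0.34 (mean ± SD, n = 3 lines). The 12 largest rises lay between 606 and 4241 RPKM in dehydrated leaves, against 0.244 to 3.15 RPKM in watered leaves. Glyma.17G212200 showed the largest fall among such genes, with 0.797 RPKM in dehydrated B010C and 381 RPKM in watered B010C, a difference of -7.73. Its dehydrated and watered values were 1.75 and 427 RPKM in A004A, 1.28 and 364 RPKM in A005B, and 1.79 and 297 RPKM in null. In dehydrated leaves it stood below 2 RPKM in every line, and the other lines gave -7.11 ± 0.33 (mean ± SD, n = 3 lines). The 12 largest falls lay between 0 and 18.9 RPKM in dehydrated leaves and between 77.7 and 1739 RPKM in watered leaves. Since these 24 genes were ranked by their B010C difference, their values describe the extremes and test nothing.

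The list of the most abundant transcripts changed in part. Glyma.07G139700 was the highest gene of dehydrated B010C, at 6236 RPKM there and 23.5 RPKM in watered leaves, a difference of 7.99. The dehydrated and watered values were 6327 and 27.96 RPKM in A004A, 6204 and 25.4 RPKM in A005B, and 3471 and 27.2 RPKM in null, so that the null line had the lowest dehydrated level. In B010C the gene made up 0.762% of all RPKM in dehydrated leaves and 0.00327% in watered leaves. The genes ranked 2, 3 and 5 in dehydrated leaves were already abundant in watered leaves, at 2792, 1319 and 1780 RPKM. Glyma.11G155000, the highest gene of watered B010C, stood at 2306 RPKM in dehydrated and 10018 RPKM in watered leaves, a difference of -2.12, or 0.282% of all RPKM after drying and 1.40% in watered leaves. The lists of the 100 highest genes of dehydrated and of watered leaves shared 36 genes, and the lists of 1000 shared 410. The 100 highest genes of dehydrated leaves held 20.2% of RPKM there and 9.51% in watered leaves, and 70 of them were at least 2-fold higher after drying. The 100 highest of watered leaves held 10.6% of RPKM in dehydrated leaves and 21.4% in watered leaves, and 59 of them were at least 2-fold lower. In the other lines Glyma.11G155000 stood at 1277 RPKM dehydrated and 8549 RPKM watered in A004A, 881 and 6946 RPKM in A005B, and 3433 and 8884 RPKM in null. The shares above describe genes picked at the top of one column, which favours a lower value in the other column. The concentration of the transcriptome changed less, with 50% of all RPKM carried by 1067 genes in dehydrated and 1222 genes in watered leaves.

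Across level classes, movement was mostly by 1 class. Of the 995 genes at 100 RPKM or more in watered B010C, 519 (52.2%) were still there after drying, 426 stood between 10 and 100 RPKM, and 50 lay lower, 4 of them under 1 RPKM. Of the 1380 genes at 100 RPKM or more in dehydrated B010C, 593 came from 10 to 100 RPKM in watered leaves, 192 from 1 to 10 RPKM and 76 from under 1 RPKM.

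The direction of the response also differed with the watered level, here read from the watered columns of the other lines so that no column was used on both sides. Among genes averaging 100 RPKM or more in those columns, 9.41% were at least 2-fold higher in dehydrated B010C and 44.1% lower. Between 20 and 100 RPKM the shares were 11.2% higher and 34.5% lower, between 5 and 20 RPKM 13.2% and 27.5%, and between 1 and 5 RPKM 16.7% and 19.3%. Of the 711 genes at least 16-fold higher, 337 averaged under 1 RPKM in the watered leaves of the other lines and 2 averaged 100 RPKM or more. Falls are bounded by the scale, on which a gene near 1 RPKM can hardly fall 2-fold, so the shares of lower genes in the low classes are understated. With a pseudocount of 0.1 the lower shares were 32.5% in the class of 1 to 5 RPKM, 30.7% at 5 to 20 RPKM, 35.2% at 20 to 100 RPKM and 44.2% at 100 RPKM or more, so that below 100 RPKM the gradient was largely lost. The higher shares with that pseudocount were 20.3%, 14.3%, 11.4% and 9.51% in the same classes. The lowest class, with 63.7% higher, holds genes that mostly passed the filter through the dehydrated column, and its share is fixed in part by that choice.

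**Figure D3:**
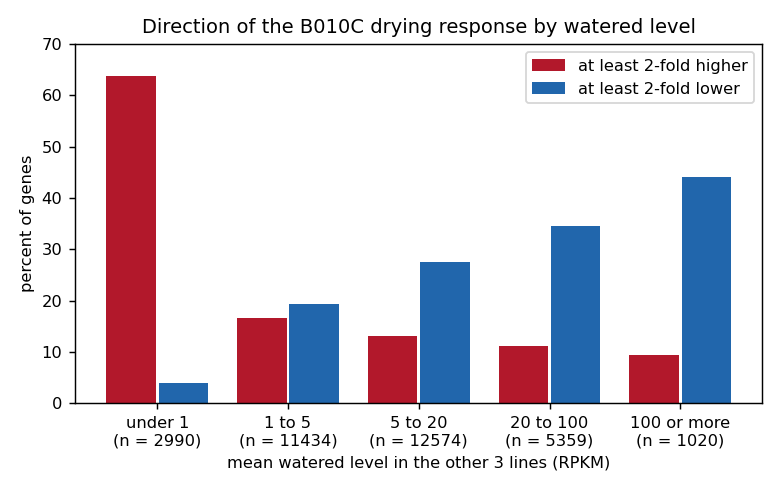
Percent of genes at least 2-fold higher (left bar) and at least 2-fold lower (right bar) in dehydrated than in watered B010C, by the mean watered level of the gene in A004A, A005B and null (RPKM classes, number of genes in brackets). The share of lower genes is 19.3% in the class of 1 to 5 RPKM and 44.1% in the class of 100 RPKM or more. The class under 1 RPKM mostly passed the filter through the dehydrated column, and with a pseudocount of 0.1 the share of lower genes in the class of 1 to 5 RPKM was 32.5%.

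Some genes were listed at 0 in only 1 of the B010C columns and reached 1 RPKM or more in the other. Listed at 0 in watered B010C and at 1 RPKM or more in dehydrated B010C were 416 genes, with a median of 3.66 RPKM, a highest value of 413 RPKM and 108 genes at 10 RPKM or more. The reverse, listed at 0 in dehydrated leaves and at 1 RPKM or more in watered leaves, held for 249 genes, with a median of 2.13 RPKM, a highest value of 77.7 RPKM and 22 genes at 10 RPKM or more. A listed 0 can be a failed estimate in such a table. Of the 416 genes, 128 were listed at 0 in the watered columns of all 4 lines, and 35 of these reached 1 RPKM in all 4 dehydrated columns. Of the 249 genes, 55 were listed at 0 in every dehydrated column, and 13 of these reached 1 RPKM in every watered column. The other lines had 249 to 407 genes of the first kind and 196 to 236 of the second, so B010C had the most of both, without a test.

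The question of how far the B010C response is shared was asked against the other lines, whose responses use none of the B010C columns. Before that, 1 pattern in those lines has to be stated. In 39 of the 56044 genes A004A and A005B lay at least 2-fold above B010C and null after drying. In watered leaves of the same genes A004A and null lay at least 2-fold above B010C and A005B. Matching counts for other pairings of the lines are not given, so the 39 genes are not shown to be unusual. An exchange of the watered columns of A005B and null would leave the mean of the 3 responses as it is. It would change the spread of that mean and the counts that use single lines. Of the genes at least 2-fold higher in dehydrated B010C, 61.9% were at least 2-fold higher in each of A004A, A005B and null, against 11.8% of all genes counted, and 92.8% were higher in all 3 by any amount, against 33.6% of all genes counted. Of the genes at least 2-fold lower, 57.7% passed the same fold downwards in A004A, A005B and null alike, against 14.5% of all genes counted, and 96.7% were lower in all 3 by any amount, against 45.0% of all genes counted. Past 2-fold in B010C and in none of the other lines were 634 higher genes (10.3% of the higher genes and 1.77% of the 35901 genes with at least 1 RPKM in any column) and 485 lower genes (6.0% and 1.35%). Counted in the same way, A004A had 494 higher and 1715 lower genes, A005B 694 and 676, and null 478 and 323, so that B010C lay within the range of the other lines in both directions.

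With the 4 lines in place of replicates, limma (log2(RPKM + 1), terms for line and treatment, Benjamini-Hochberg adjustment) called 9740 genes higher (29.2% of 33377 tested) and 13471 lower (40.4%) after drying, at a threshold of 0.05 on the adjusted p. Among the B010C genes at least 2-fold higher, 5814 (94.1%) were called higher, and among those at least 2-fold lower, 7919 (97.9%) were called lower. B010C is 1 of the 4 lines in this fit, so these shares are a description. For Glyma.01G021000 the mean response was 9.42 ± 0.27 SE (limma adjusted p = 4.16e-07), for Glyma.17G212200 -7.27 ± 0.18 SE (2.78e-07), for Glyma.07G139700 7.65 ± 0.25 SE (5.61e-07) and for Glyma.11G155000 -2.30 ± 0.43 SE (0.00178). In each of these 4 genes all 4 lines moved in the same direction. The 4 genes were picked by their B010C values, which the fit also uses, so their p-values are no independent support. The fit treats the lines as interchangeable, and 3 residual degrees of freedom per gene carry its estimate of spread.

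B010C responded along the same axis as the other lines and by about the same amount. Over 35901 genes with at least 1 RPKM in any column, the B010C response correlated with the mean response of the other 3 lines at Pearson r = 0.945, with a slope of 1.04, or 0.97 without null. Genes are not independent replicates, and all columns share the authors' processing. On the same genes the other lines had 5473 to 6190 genes at least 2-fold higher and 6215 to 9864 at least 2-fold lower, so the B010C numbers lay within their range. The B010C response exceeded the mean of the others by at least 2-fold in 1138 genes (3.17%) and fell short of it by at least 2-fold in 410 genes (1.14%). With a pseudocount of 0.1 these numbers were 2125 and 1657. With equal column sums they were 930 and 848, so that the excess on the upper side nearly vanished, and against A004A and A005B alone 1526 and 712.

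**Figure D4:**
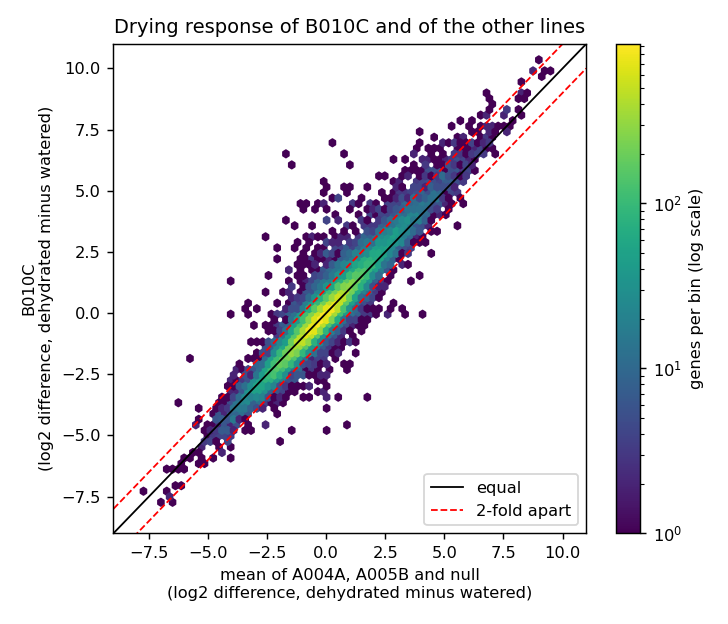
Response to drying of each of 35901 genes in B010C (vertical axis) against the mean response of A004A, A005B and null (horizontal axis), both as the log2(RPKM + 1) difference, dehydrated minus watered, with the number of genes per bin in colour. Most genes lie between the dashed lines, which mark 2-fold differences in response from the solid line of equality. More genes lie above the upper dashed line (1138) than below the lower one (410), an excess nearly lost with equal column sums (930 and 848).

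The limma test of the difference between the B010C response and that of the other 3 lines called 0 of 35901 genes, with a lowest adjusted p of 0.0632 and 1058 genes (2.95%) at an unadjusted p under 0.05. With only 1 response for B010C the test has 2 residual degrees of freedom per gene and assumes that the lone response varies as the others do. It called 16 genes when A005B was left out and 254 genes without the filter at 1 RPKM. The count of 0 is thus no evidence that the lines respond alike.

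Among genes reaching 20 RPKM in B010C, the 2 widest differences in each direction were in genes listed at 0 in 1 of the B010C columns. Glyma.12G156000 stood at 93.4 RPKM in dehydrated B010C and was listed at 0 in watered B010C. In the other lines it was lower after drying in A004A (6.34 RPKM dehydrated, 20.4 RPKM watered) and A005B (9.60 and 107 RPKM) and nearly level in null (35.8 and 33.8 RPKM). Its response in B010C was above the mean of the others by 8.17 ± 1.17 SE (limma adjusted p = 0.362). Glyma.09G245100 stood at 71.3 RPKM in dehydrated B010C and at a listed 0 in watered B010C. In A005B it stood at 8.04 RPKM dehydrated and 13.5 RPKM watered, in null at a listed 0 dehydrated and 12.2 RPKM watered, and in A004A it was listed at 0 in both. Its difference was 7.65 ± 1.34 SE (limma adjusted p = 0.633). In the other direction, Glyma.16G070500 was listed at 0 in dehydrated and stood at 23.1 RPKM in watered B010C, while elsewhere its one value above 0 was 6.51 RPKM in dehydrated null (-5.56 ± 1.15 SE, limma adjusted p = 0.880). Glyma.04G157400 was listed at 0 in dehydrated and stood at 26.7 RPKM in watered B010C and was listed at 0 in all 6 other columns (a difference of -4.79). Its responses in the other lines were thus all 0, and the spread that the limma fit used for this gene came from other genes alone. The lowest adjusted p of the test was reached in this gene and also in a gene of the opposite direction. That other gene stood at 39.9 RPKM in dehydrated B010C and was listed at 0 in watered B010C and in every column of the other lines.

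Genes whose B010C response lay at least 2-fold beyond every other line were mainly on the upper side. Above all 3 other lines were 410 genes (1.14%) and below all 3 were 86 genes (0.24%). The same counts were 147 and 357 with A004A as the line set apart, 339 and 289 with A005B, and 350 and 259 with null. In the 410 genes the median level was 17.8 RPKM in dehydrated B010C and 0.435 RPKM in watered B010C, 357 of them were at least 2-fold higher in dehydrated B010C, and 139 were at least 2-fold higher in each of the other lines as well. Since 122 of them were listed at 0 in watered B010C, the watered column could hardly lie further down. Relative to the mean of the other lines, the median log2 difference of B010C was 1.46 in the dehydrated column and -0.29 in the watered column. In the 86 genes, 54 were listed at 0 in dehydrated B010C and the watered column of B010C lay above the others by a median of 1.05. The numbers turned with the settings: with a pseudocount of 0.1 they were 712 and 417, and with equal column sums 141 genes lay below and with a filter at 5 RPKM 55. Against only A004A and A005B they were 836 and 346, and without A005B 678 and 202. Without A004A 158 genes lay below.

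Genes strongly induced by drying were then examined in a set chosen without the B010C columns. These were 148 genes at least 32-fold higher after drying in each of A004A, A005B and null. Their median level in dehydrated leaves was 245 RPKM in B010C, 177 in A004A, 190 in A005B and 183 in null. In watered leaves it was 0.819 RPKM in B010C, 1.07 in A004A, 0.825 in A005B and 1.14 in null. Together they made up 9.07% of all RPKM in dehydrated B010C, against 10.1% in A004A, 9.29% in A005B and 7.21% in null, and 0.0468% in watered B010C, against 0.0575%, 0.0479% and 0.0597% in watered A004A, A005B and null. Every one of the 148 reached at least 30.2 RPKM in dehydrated B010C, and no watered B010C value was above 24.1 RPKM.

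In these genes B010C tended to hold both ends of the range. Its dehydrated value was the highest of the 4 lines in 71 of 148 genes (48.0%), against 18.0% of all 35901 genes. Its watered value was the lowest of the 4 in 62 genes (41.9%), against 7915 of the 35901 genes. The B010C response was above the mean of the other 3 in 113 genes (76.4%, against 48.2% of all genes), with a median excess of 0.39. Measured in the same way, with the set chosen each time from the other 3 lines, the response was above the mean of the others in 37.2% of 156 genes for A004A, 51.6% of 153 for A005B and 15.1% of 185 for null. In these sets the lowest watered value was held in 17.9% by A004A, 32.7% by A005B and 3.24% by null. The highest dehydrated value was held in 16.7%, 13.1% and 14.6% by the same lines. These sets overlap and share columns, and the shares have no test.

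The size of this excess differed with null left out and with the scaling. Against A004A and A005B alone, with the set chosen from these, the share of genes with the larger response in B010C was 58.3%, against 54.6% of all genes, which is close to the background. The median excess was then 0.15, against 0.04 over all genes. The share with the highest dehydrated value was 50.5%, against 38.8% of all genes, and the share with the lowest watered value was 38.3%, against 33.0%. With equal column sums 33.5% were highest after drying, against 10.2% of all genes, and with quantile normalization 30.5%, against 18.7%. The median excess was 0.22 with equal column sums, where the median of all genes was -0.17, and 0.07 with quantile normalization, where it was -0.04. In the values as deposited the median of all genes was -0.02, so the distance of the set from all genes was nearly the same with equal column sums and smaller with quantile normalization. The set was chosen anew under each scaling, so its members differ between these values. The share with the larger response was 61.4% with equal column sums, against 32.6% of all genes, and 57.0% with quantile normalization, against 45.3%. Dehydrated B010C has the largest RPKM sum of the 8 columns, and the part of that sum in these differences was not tested beyond these scalings.

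**Figure D5:**
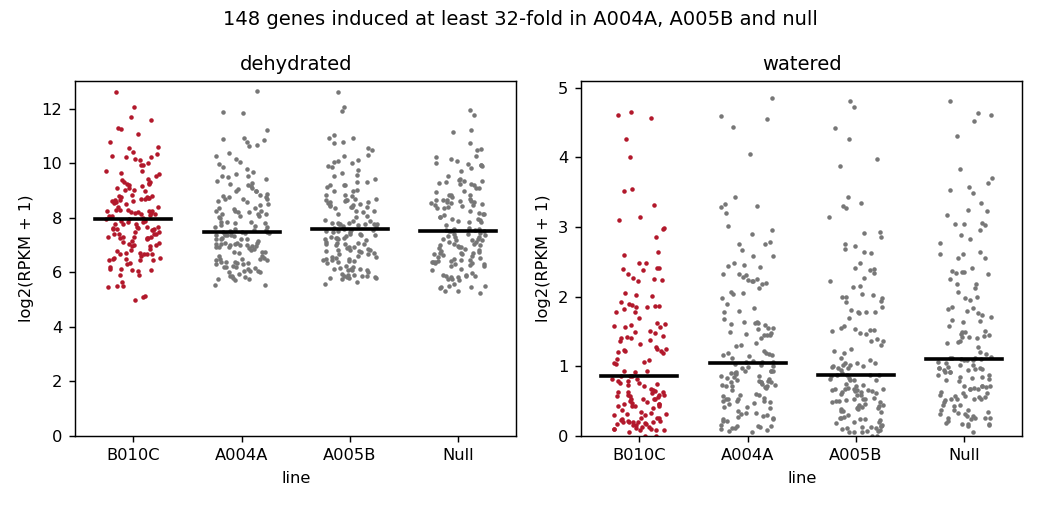
Levels in log2(RPKM + 1) of the 148 genes induced at least 32-fold in A004A, A005B and null, in dehydrated (left) and watered (right) leaves of each line. Points are genes, spread sideways for visibility, and bars are medians. The vertical scales differ between the panels. The median of dehydrated B010C (245 RPKM) lies above those of the other lines (177 to 190 RPKM), and its watered median (0.819 RPKM) is close to that of A005B (0.825 RPKM).

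Genes strongly repressed by drying showed a smaller median difference, in a set chosen at 16-fold where the induced set was chosen at 32-fold. Falls are also bounded by the scale, so the medians of these sets are not on equal terms. In 65 genes at least 16-fold lower after drying in each of the other lines, the B010C response was below their mean in all but 23 genes, 35.4% being above it where 48.2% of all genes were. The median difference was -0.21. With each other line set apart in turn, the response was above the mean of the rest in 45.3% of 64 genes for A004A, 63.9% of 72 for A005B and 87.2% of 117 for null, and the weaker falls of null enter the mean that B010C is set against. B010C held the highest dehydrated value in 12.3% of the 65 genes, against 18.0% of all genes, and the lowest watered value in 10.8%, against 7915 of 35901 genes. At the other ends, it held the highest watered value in 30.8% of the 65 genes, against 16.6% of all genes. Its dehydrated value was the lowest in 30.8%, against 25.4% of all genes, and these shares have no test.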

How the data were processed

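The values are RPKM per gene as the authors deposited them, in 1 table of 8 value columns, and 0 columns were left unused. The reads were aligned with TopHat, per the submitters' processing notes. For the counting program, the genome build, the annotation and the way the 2 samples of a group were combined, the answer is the same: not given in the sources used here. Reads that fit several near-identical genes may have been split between them, so such genes are uncertain. Columns were tied to line and treatment by their names and the labels.

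Values were used as log2(RPKM + 1), after a filter at 1 RPKM in either B010C column, or in any of the 8 columns where lines were compared. Differences between single columns have no test. limma 3.58.1 in R 4.3.3 (empirical Bayes, trend on mean expression, two-sided, Benjamini-Hochberg over all genes tested, threshold 0.05) was used with line and treatment as terms on the 8 columns, and with a term for B010C on the 4 responses. Both fits were run on simulated data. The outcome is not reported here, so nothing about the size of difference they can detect follows from it. P-values measure the spread between lines, with the variance of each gene drawn towards that of other genes of similar level. Alternatives were a pseudocount of 0.1, a filter at 5 RPKM, no filter, equal column sums (TPM), median-of-ratios scaling, quantile normalization and each other line left out. Other steps used Python 3.11.15 with pandas 2.3.3.

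Genes to be named were, among those reaching 20 RPKM in B010C, the 12 largest rises and falls and the 6 genes in each direction whose response differed most from the other lines, and the 5 highest genes of each B010C column. Apart from the genes flagged for a closer look, at most 2 identifiers in each direction of a comparison are printed, because no function can be attached to them. The 60 gene lists planned by function, and the check of leaf, nodule and seed markers, could not be built, as the gene table of assembly Glycine_max_v4.0 matched 0 identifiers. The members and lists were chosen with earlier results of these data known. The genes induced at least 32-fold elsewhere, the level classes, the genes listed at 0 and the neighbouring genes were chosen after the values had been seen.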

Additional observations from a re-analysis of the deposited data

Results flagged for a closer look

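In 3 genes B010C was at least 2-fold higher after drying while A004A, A005B and null were each at least 2-fold lower. These genes were picked out by their values, all 3 are low, and none passed the limma test of the difference. Glyma.04G100800 stood at 7.96 RPKM in dehydrated B010C and a listed 0 in watered B010C, and was listed at 0 in the dehydrated and at 3.07 to 7.83 RPKM in the watered columns of the other lines (5.85 ± 0.50 SE, adjusted p = 0.0835). Glyma.17G222900 stood at 3.97 RPKM in dehydrated B010C and a listed 0 in watered B010C, and at 0 to 3.20 RPKM dehydrated and 3.13 to 11.8 RPKM watered elsewhere (4.46 ± 0.51 SE, adjusted p = 0.178). Glyma.19G066000 stood at 11.2 RPKM in dehydrated and 1.03 RPKM in watered B010C, and at 0 to 0.424 RPKM dehydrated and 2.05 to 8.81 RPKM watered elsewhere (4.60 ± 0.82 SE, adjusted p = 0.650). The reverse pattern was seen in 0 genes.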

How the results depend on the processing

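No paired analysis was possible because the columns carry no replicate numbers, with 1 column per group; dehydrated and watered columns of a line are matched only by the term for line. For the same reason no single sample could be left out. The numbers of B010C genes past 2-fold in either direction stayed within 1.5 times their values under every alternative run, from 5008 with a filter at 5 RPKM to 7447 with median-of-ratios scaling for higher genes, and from 5769 with that filter to 10167 with a pseudocount of 0.1 for lower genes. The median difference of all genes was -0.058 with a filter at 5 RPKM, 0 without a filter, -0.36 with equal column sums and 0.054, of the opposite sign, with median-of-ratios scaling. In limma, 8850 genes were called lower with a filter at 5 RPKM, where 22261 genes were tested. The difference between B010C and the other lines gave 254 calls without a filter, and 0 to 16 calls with 1 line left out. Among the genes induced at least 32-fold in the other lines, B010C was lowest in watered leaves in 33.7% with a pseudocount of 0.1, and in 38.3% to 59.4% with 1 line left out. It was highest in dehydrated leaves in 33.5% with equal column sums and 30.5% with quantile normalization, and in 50.5% to 56.2% with 1 line left out. Its response was above the mean of the others in 61.4% with equal column sums and 57.0% with quantile normalization, and in 58.3% to 78.8% with 1 line left out. Over all genes that share was 48.2% as deposited, 32.6% with equal column sums, 45.3% with quantile normalization and 54.6% without null. Leaving out a line, rescaling the columns and the lower pseudocount also change which genes are in the set. The cause of the other changes was not tested. The 8 genes named for their B010C response or their difference from the other lines kept direction and at least 2-fold size in 44 of 44 recomputed values. Most of them were picked as extremes far beyond 2-fold, so this outcome was largely fixed by the choice and says little about other genes. The unknown depth leaves the error of low values, and of a listed 0, without an estimate.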

Other observations

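Genes that responded to drying in B010C were often next to genes that responded the same way. The identifiers carry the chromosome and run along it, and the table is in that order. Among pairs of consecutive genes that were both counted, 30.3% of the neighbours of genes at least 2-fold higher were themselves higher, against 19.1% of all genes in such pairs, and 31.2% of the neighbours of lower genes were lower, against 23.7%. Without the filter the shares among neighbours were 20.2% and 19.7%, where 6177 and 8088 of 56044 genes were higher and lower. There were 20 runs of at least 5 consecutive higher genes and 17 of at least 5 lower genes. The longest was on chromosome 15, where 9 consecutive genes were higher in dehydrated B010C, by 1.14 to 7.69 on the log2 scale. They stood at up to 850 RPKM in dehydrated and up to 65.9 RPKM in watered leaves, and 9, 9 and 8 of the 9 were at least 2-fold higher in A004A, A005B and null. Of the longest runs of lower genes, that on chromosome 16 held 7 genes, all of them at least 2-fold lower in each other line too. Another, on chromosome 1, held 7 genes, of which 4, 5 and 2 were at least 2-fold lower in A004A, A005B and null. Neighbours can be copies of one gene that share reads, which was not tested.

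By chromosome, the share of genes at least 2-fold higher in dehydrated B010C lay between 16.2% on chromosome 20 and 21.0% on chromosome 13. The share of lower genes lay between 21.5% on chromosome 13 and 26.2% on chromosome 12. Chromosome 13 thus had the highest share of higher genes and the lowest share of lower genes of the 20 chromosomes, without a test.

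In 10 of the 56044 genes B010C lay at least 2-fold above every other line in dehydrated and in watered leaves, and in 3 genes at least 2-fold below. Most of the 10 were listed at 0 in some column of the other lines. Matching counts for A004A, A005B and null are not given, so these numbers are not shown to be particular to B010C. Glyma.12G070100 stood at 0.0223 RPKM in dehydrated and 0.036 RPKM in watered B010C, and at 5.04 to 7.56 RPKM in all other columns. Glyma.08G056000, one of the 10, stood at 162 RPKM in dehydrated and 4.46 RPKM in watered B010C, against 8.46 to 39.6 RPKM in the dehydrated and 0 to 1.30 RPKM in the watered columns of the other lines. These genes were picked out by their values.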
